A study of Homo sapiens with 16 samples.

Results

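Genes of mitosis were followed in tumours of BT474, an ERBB2 (HER2)-amplified line of human breast cancer cells, in which the tyrosine phosphatase SHP2 (gene PTPN11) had been knocked down. The list named 41 genes. A gene was used where a transcript cluster of the array was annotated to that symbol alone, and where several clusters qualified the one with the highest mean was taken. This gave 40 of the 41 genes, out of 18377 genes measured in the same way. The histone variant gene CENPA was left out because its cluster was also annotated to other symbols. The tumours carried a doxycycline-inducible lentiviral vector with a control hairpin (CTRL miR, 6 tumours), a first hairpin against SHP2 (SHP2 miR1, 7 tumours) or a second one (SHP2 miR2, 3 tumours). All 16 grew orthotopically, in a mammary fat pad of immunodeficient mice, and once tumours had formed every group, controls included, received doxycycline for 30 days in drinking water (2 g per L). Total RNA (100 ng) of each dissected tumour was measured on 1 array. The question is how expression differs with and without SHP2. All groups derive from 1 cell line, the labels do not tie tumours to animals or give the age of the mice, and a dissected tumour also holds mouse cells.

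Values are log2 signals, differences are log2 differences with their standard error (SE), and a gene was called at a limma p adjusted after Benjamini-Hochberg below 0.05. PTPN11 was lower in all 10 knockdown tumours (6.34 to 7.18) than in all controls (8.23 to 8.61). The hairpins were not equal in this: PTPN11 was 6.34 to 6.53 with miR2 and 6.59 to 7.18 with miR1, without overlap. Its change for miR2 against miR1 was -0.46 ± 0.12 (SE, limma adjusted p = 0.0115). Whether this difference in knockdown bears on the mitosis genes was not tested. Luminal epithelial markers, which BT474 should have, had a mean over 9 genes (KRT8, KRT18, KRT19, EPCAM, CDH1, ERBB2, GATA3, ESR1 and TFAP2B) of 8.82 to 9.54 across the tumours, although TFAP2B was low (4.04 to 4.75). The arrays differed in 3 ways that the labels do not give. Control tumours 1, 3, 4 and 6 had IRS4, an insulin receptor adaptor, at 7.14 to 8.29, against 2.97 to 3.91 with either SHP2 hairpin, while control tumours 2 and 5 had 3.16 and 3.77. The mean of 5 noncoding RNAs separated a set A (control tumours 1, 2 and 3 and miR1 tumours 1 to 4) at 8.19 to 8.39 from a set B, which held all miR2 tumours, at 6.81 to 7.21. The signals of 2 miR2 arrays, those of tumours 1 and 3, were less spread out (SD across clusters 1.89 each, others 1.95 to 2.07). Results are therefore also given with control tumours 2 and 5 alone, within sets, and without those miR2 tumours.

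A cell enters mitosis when cyclin B and CDK1 become active. Aurora and Polo-like kinases then drive the building of the spindle, kinetochores attach chromosomes to its microtubules, and a checkpoint holds back the anaphase-promoting complex until all are attached. Most of these genes are transcribed late in the cell cycle, through B-MYB and FOXM1 acting with the MuvB complex, and are repressed in resting cells by the related DREAM complex. In breast tumours their transcripts are used as a measure of proliferation. In a bulk sample, fewer dividing cells and less RNA of these genes per cell cannot be told apart.

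With SHP2 miR2, all 40 genes were called lower than with CTRL miR, and with SHP2 miR1 none was called. The changes with miR2 ran from -1.29 (KIF14) to -0.44 (AURKA), with a median of -0.88, and at most 74.0% of the control signal remained. Over all genes, 18.2% were called lower and 11.8% higher with miR2 (30.0% in either direction), and the median change was 0.02. The changes with miR1 ran from -0.36 (MAD2L1) to 0.20 (ANLN), with a median of -0.10. Of the 40 genes 0 rose and 0 fell with miR1, where limma called 1.38% of all genes higher and 3.38% lower (4.76% in either direction). At an unadjusted p below 0.05, 2 of the 40 passed with miR1, as did 18.4% of all genes. All 40 genes were also called lower with miR2 than with miR1, by -1.12 (KIF20A) to -0.38 (UBE2C), where 14.3% of all genes were called lower and 8.22% higher (22.5% in either direction). The estimate lay below 0 in 30 of the 40 genes with miR1, against 45.1% of all genes, and in 40 of 40 with miR2, against 47.8%. For miR2 against miR1 it lay below 0 in 40 of 40, against 49.4% of all genes. The comparisons of each hairpin with the controls share the control tumours. When each array was centred on its median, the split of all calls with miR2 against the controls moved from 2163 higher and 3345 lower to 1295 and 4146, and against miR1 from 1510 and 2626 to 737 and 4031. That centring shifted the median of all genes for miR2 against miR1 from 0.004 to -0.108, and the median of the 40 mitosis genes in that comparison was -0.89 with it.

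**Figure D1:**
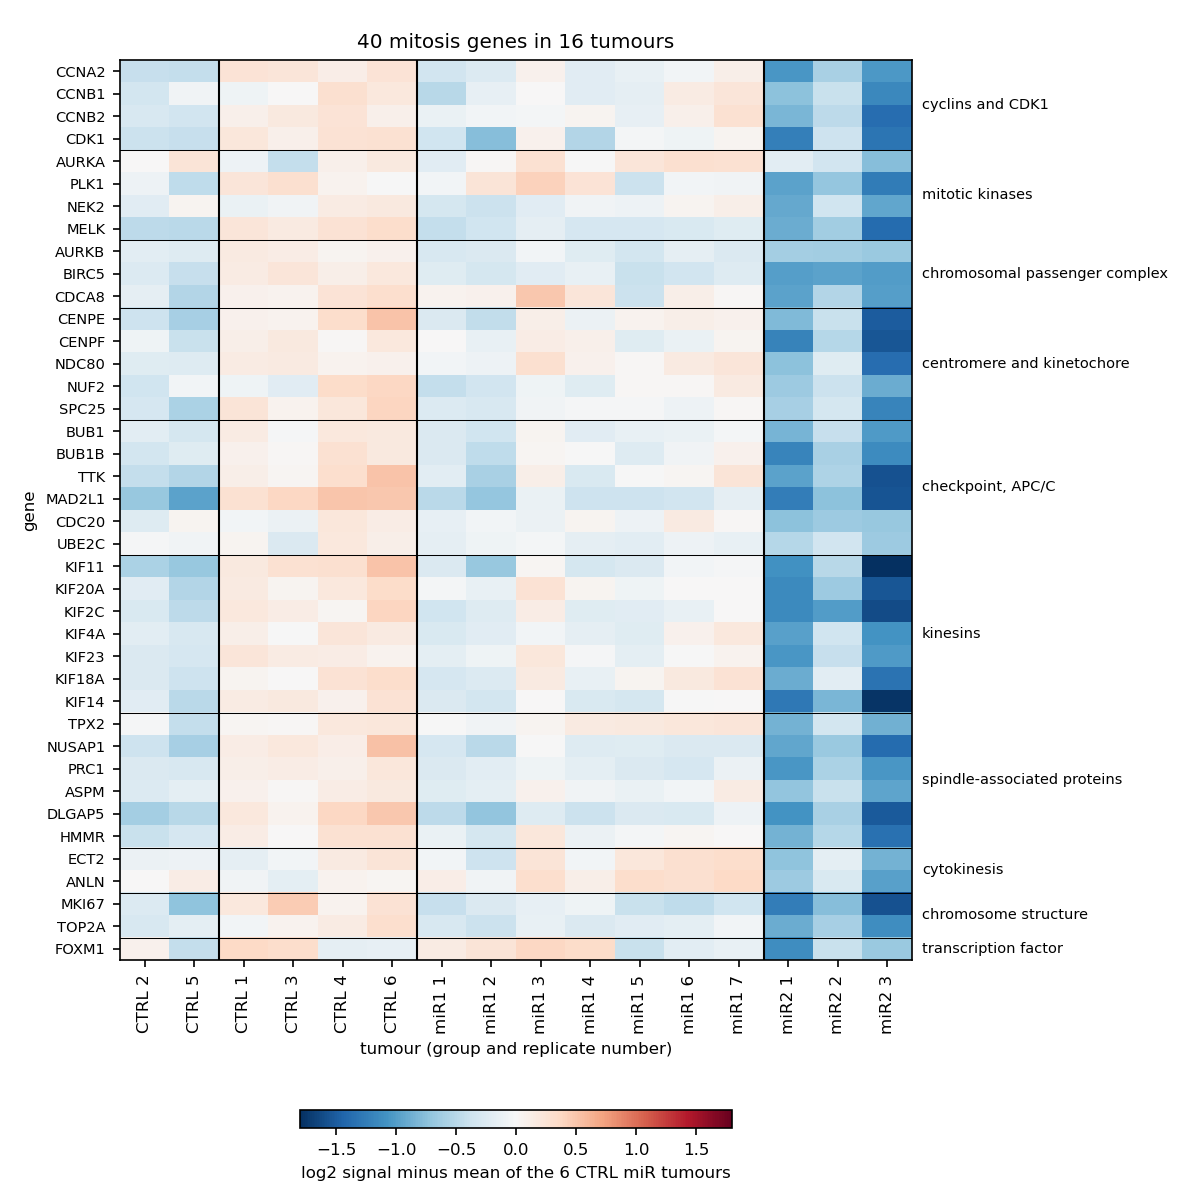
Log2 signal of each of the 40 mitosis genes (rows, grouped by role) in each of the 16 tumours (columns) minus the mean of the 6 CTRL miR tumours, with control tumours 2 and 5 placed first. Blue is lower and red is higher: the 3 SHP2 miR2 columns are blue throughout, deepest in tumour 3 for 34 of the genes, while control tumours 2 and 5 are mostly pale blue and the miR1 tumours lie on both sides of the control mean.

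The tumours differed in how far the list as a whole was shifted. The mean log2 signal of the 40 genes was 7.86, 7.83 and 7.94 in control tumours 1, 3 and 4, highest of all in control tumour 6, and 7.50 and 7.42 in control tumours 2 and 5. With miR1 it was 7.54, 7.50, 7.82, 7.66, 7.62, 7.72 and 7.79 in tumours 1 to 7. With miR2 it was 6.85, 7.25 and 6.57 in tumours 1, 2 and 3. The miR1 tumours thus lay between both kinds of control, and every miR2 tumour lay below all others. Each miR2 tumour was below the control mean in 40 of 40 genes, where 49.6%, 50.2% and 49.1% of all genes were in tumours 1, 2 and 3. The lowest value of all 16 tumours was in miR2 tumour 3 for 34 genes and in miR2 tumour 1 for the other 6. The highest was in control tumour 6 for 19 genes and in control tumour 4 for 8. Tumour 2 was the highest of the miR2 tumours in 38 of 40 genes. Its values were below every control in 29 genes, against 39 for tumour 1 and 40 for tumour 3. The share of all genes was not counted for these lowest, highest and single-tumour patterns, so they describe the list alone.

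What these genes share in their promoters was looked up as well, since the list was not chosen on sequence. A pair of short elements recurs in promoters of mitosis genes: the cell cycle homology region (CHR), which MuvB complexes bind, searched as TTTGAA or TTCGAA, and the CCAAT box, which the factor NF-Y binds, searched as CCAAT, each on both strands and with overlaps allowed. The RefSeq table (GRCh38.p14), with 250 bases before and 50 after a gene's start, held 37 promoters for 34 of the 40 genes. A CHR was in 28 of these 37 promoters (75.7%), against 16.4% of all 35116 promoters of the table and 13.6% of those of the genes measured here. A CCAAT box was in 29 (78.4%), against 34.6% of all promoters, and both elements were in 23 (62.2%), against 6.38%. In the last 100 bases before the start, both were in 12 (32.4%), against 0.988% of all promoters. The 26 genes with a CHR match had a median change with miR2 of -0.88. The 8 genes with a promoter in the table but no match to these CHR letters had -0.89. They were AURKB, CCNA2, CCNB1, CENPE, KIF20A, KIF2C, MELK and NEK2. Other spellings of the element were not searched, so these 8 genes are not shown to lack it. A match of letters is a description of the sequence and not of binding.

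The following stretches are the 100 bases before the start in the 6 genes with the largest fall with miR2 among those with both elements there, to show how the elements are spaced. Capitals mark each CHR and CCAAT match. A match on the other strand reads TTCAAA for a CHR and ATTGG for a CCAAT box. They lie at chr10:128126424-128126523 on the minus strand (MKI67), chr10:92593030-92593129 (KIF11), chr16:23678789-23678888 (PLK1), chr10:60778378-60778477 (CDK1) and chr5:163460532-163460631 (HMMR), each on the plus strand, and chr15:90994536-90994635 on the minus strand (PRC1).
MKI67: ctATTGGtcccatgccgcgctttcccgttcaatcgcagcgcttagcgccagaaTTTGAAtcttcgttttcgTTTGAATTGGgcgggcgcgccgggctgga
KIF11: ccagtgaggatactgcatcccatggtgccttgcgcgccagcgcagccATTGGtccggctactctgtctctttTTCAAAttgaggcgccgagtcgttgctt
PLK1: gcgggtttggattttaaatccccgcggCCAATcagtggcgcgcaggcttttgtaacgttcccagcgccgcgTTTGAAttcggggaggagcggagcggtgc
CDK1: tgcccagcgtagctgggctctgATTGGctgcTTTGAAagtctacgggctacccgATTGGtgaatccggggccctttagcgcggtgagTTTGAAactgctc
HMMR: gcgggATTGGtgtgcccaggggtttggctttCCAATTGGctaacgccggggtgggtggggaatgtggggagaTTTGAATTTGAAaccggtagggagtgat
PRC1: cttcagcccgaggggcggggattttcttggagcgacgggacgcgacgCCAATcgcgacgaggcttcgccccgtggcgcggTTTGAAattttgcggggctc

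In these 6 stretches at least 1 CCAAT box stands farther from the start than the CHR nearest to it, as in PLK1, where the CCAAT box begins 73 bases before the start and the CHR 29. In KIF11 they begin 53 and 28 bases before it, and in PRC1 53 and 20. Over the 37 promoters, 9 of 41 CHR matches began 30 to 21 bases before the start, and 12 of 60 CCAAT matches began 60 to 51 bases before it. Matches in the overlapping promoters of 1 gene are counted more than once.

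**Figure D2:**
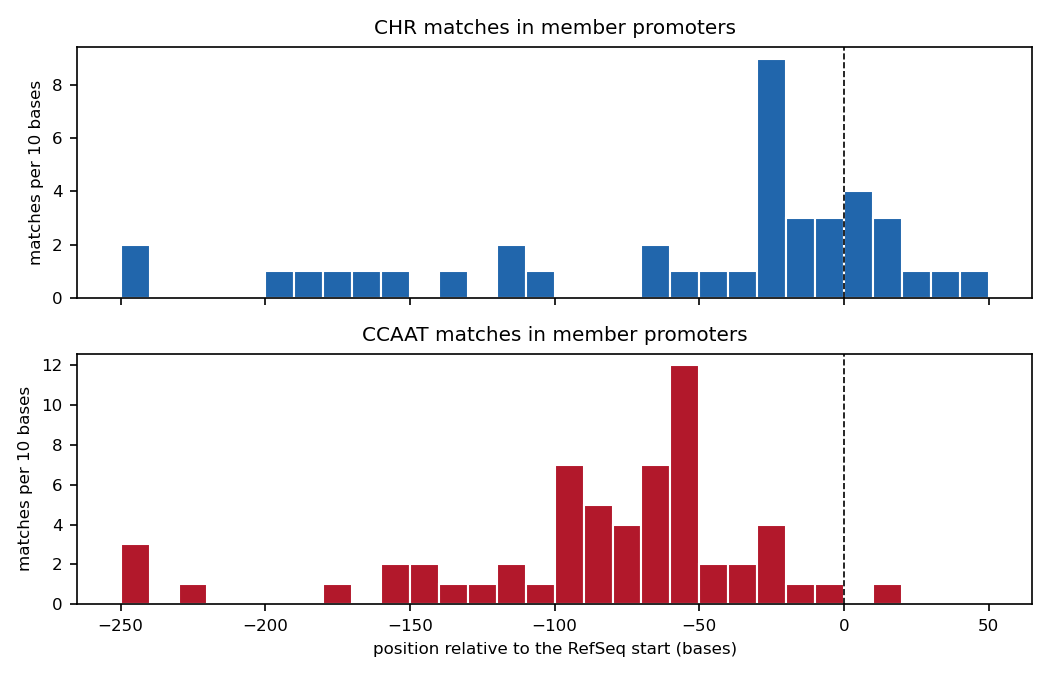
Number of CHR matches (top) and CCAAT matches (bottom) per 10 bases in the 37 RefSeq promoters of the mitosis genes, by distance from the annotated start (0, dashed line). CHR matches are most frequent 30 to 21 bases before the start (9 of 41) and CCAAT matches 60 to 51 bases before it (12 of 60).

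All 40 genes were called lower with miR2, where 18.2% of all genes were, so the counts by role given from here on restate that result. The cyclins and their kinase were lower with miR2 in 4 of 4 cases, with a median of -0.89. CDK1, the kinase that starts mitosis, had 5.92 and 6.86 in miR2 tumours 3 and 2, with tumour 1 close to tumour 3. The controls had 7.43, 7.32, 7.49 and 7.50 in tumours 1, 3, 4 and 6 and 6.84 and 6.81 in tumours 2 and 5, and the miR1 tumours ran from 6.47 over a median of 7.16 to 7.31. The miR2 tumour with the highest value thus overlapped control tumours 2 and 5. The change with miR2 was -0.97 ± 0.22 (SE, limma adjusted p = 0.00377) and with miR1 -0.23 ± 0.17 (SE, 95% interval -0.60 to 0.13). Cyclin B1 (CCNB1), the CDK1 partner, had 8.26, 8.59 and 7.84 with miR2 against 8.66 to 9.28 in the controls, which did not overlap, and its change was -0.77 ± 0.17 (SE, adjusted p = 0.00278). Cyclin B2 (CCNB2) had 6.80, 7.15 and 6.25 with miR2, 7.28 to 7.87 in the controls and 7.48 to 7.89 with miR1. Its change was -0.89 with miR2 (adjusted p = 0.000937) and 0.01 with miR1. Cyclin A2 (CCNA2), which acts in S phase and early mitosis, had 6.96, 7.43 and 6.97 with miR2 against 7.58 to 8.26 in the controls and changed by -0.89 (adjusted p = 0.000921).

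The group of other mitotic kinases held PLK1, MELK, NEK2 and AURKA. PLK1, which acts in spindle assembly and mitotic entry, had 7.07, 7.33 and 6.77 with miR2, 7.57 to 8.32 in the controls and 7.64 to 8.44 with miR1, with no overlap between miR2 and the rest. Its change was -0.97 ± 0.17 (SE, adjusted p = 0.000585) with miR2 and 0.05 ± 0.14 (SE, 95% interval -0.24 to 0.33) with miR1. MELK, a kinase of proliferating cells, had 7.12, 7.38 and 6.63 with miR2, 7.53 to 8.32 in the controls and 7.58 to 7.85 with miR1. It changed by -0.96 with miR2 (adjusted p = 0.000863), and NEK2, a centrosome kinase with 6.20, 6.76 and 6.18 against 6.92 to 7.30 in the controls, by -0.74 (adjusted p = 0.000994). Aurora A (AURKA), needed for spindle poles, changed least of all 40 genes. Its values with miR2, 8.31, 8.16 and 7.74, overlapped those of the controls (8.08 to 8.74), and the change was -0.44 ± 0.15 (SE, adjusted p = 0.037). Among the controls, AURKA had 8.52 and 8.74 in tumours 2 and 5 and 8.42, 8.08, 8.60 and 8.68 in tumours 1, 3, 4 and 6.

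The chromosomal passenger complex corrects faulty attachments of chromosomes and later guides cytokinesis. Its 3 measured genes fell with miR2. BIRC5 (survivin) showed little spread between the miR2 tumours, with 6.27, 6.29 and 6.26, against 6.85 to 7.48 in the controls and 6.86 to 7.13 with miR1. The miR2 tumours lay below all others, and the change of -0.99 ± 0.13 (SE) had the smallest adjusted p of the list (2.84e-05). A second, dimmer cluster of BIRC5 did not follow, at 4.01 ± 0.13 (SD, n = 6) in the controls. It was at 4.20 ± 0.13 (SD, n = 7) with miR1, and with miR2 at 4.20 ± 0.14 (SD, n = 3). These means are near the lower quartiles of the arrays (3.72 to 4.04), where a fall could hardly be read. Aurora B (AURKB), the kinase of the complex, had 6.75, 6.74 and 6.70 with miR2, 7.13 to 7.52 in the controls and 7.03 to 7.32 with miR1. It changed by -0.63 ± 0.10 (SE, adjusted p = 0.000308) with miR2 and by -0.22 ± 0.08 (SE, adjusted p = 0.13) with miR1. CDCA8 (borealin), which targets the complex to centromeres, had 5.65, 6.09 and 5.62 with miR2 against 6.09 to 6.92 in the controls and changed by -0.83 (adjusted p = 0.00245).

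Of the centromere and kinetochore genes, 5 of 5 measured were lower with miR2. CENPF, a kinetochore and nuclear matrix protein, had 7.16, 7.84 and 6.82, against 7.96 to 8.55 in the controls and 8.14 to 8.50 with miR1, so that the groups did not overlap. Its change was -1.09 ± 0.17 (SE, adjusted p = 0.000188) with miR2 and -0.03 (95% interval -0.30 to 0.25) with miR1. CENPE, a motor that moves chromosomes to the spindle equator, changed by -0.90 with miR2 (adjusted p = 0.00682), with values of 5.84, 6.24 and 5.14 that overlapped control tumour 5 (6.04). Of the NDC80 complex, which binds microtubules, NDC80 changed by -0.77, SPC25 by -0.70 and NUF2 by -0.64 (adjusted p = 0.00339, 0.00991 and 0.00786). NDC80 had 6.44, 6.97 and 5.81 with miR2 against 6.95 to 7.34 in the controls. NUF2 had 7.68, 7.95 and 7.44 against 7.97 to 8.70, without overlap. SPC25, with 5.05, 5.33 and 4.46 with miR2 against 5.08 to 6.03 in the controls, had the lowest signals of the list, down to 4.46, which is above the lower quartile of every array (3.72 to 4.04).

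The spindle checkpoint and the anaphase-promoting complex were represented by 6 genes, all lower with miR2. MAD2L1, which holds the complex inactive, had the widest spread among controls, with 7.78 to 8.01 in tumours 1, 3, 4 and 6 and 6.83 and 6.55 in tumours 2 and 5. The miR1 tumours had 6.81 to 7.39 and the miR2 tumours 6.27, 6.77 and 5.96. The miR2 values thus lay below the first 4 controls but not below control tumour 5. Its change with miR2 was -1.18 ± 0.27 (SE, adjusted p = 0.00405), and against control tumours 2 and 5 alone it was -0.36 (adjusted p = 0.353). CDC20, the activator of the complex that the checkpoint restrains, varied little. It had 6.98 to 7.42 in the controls, 7.07 to 7.37 with miR1 and 6.47, 6.56 and 6.53 with miR2. Its change of -0.69 ± 0.10 (SE, adjusted p = 0.000141) was much the same against control tumours 2 and 5 alone (-0.60, adjusted p = 0.0139). The checkpoint kinase BUB1 had 7.10, 7.52 and 6.92 with miR2, 7.63 to 8.13 in the controls and 7.58 to 7.99 with miR1. BUB1B had 6.87, 7.48 and 6.92 with miR2 against 7.73 to 8.33 in the controls, and TTK had 6.31, 6.72 and 5.70 against 6.74 to 7.79, each without overlap. The checkpoint kinases BUB1 (-0.76, adjusted p = 0.000759), BUB1B (-0.97, adjusted p = 0.000261) and TTK (-1.03, adjusted p = 0.00337) fell with miR2. UBE2C, the ubiquitin-conjugating enzyme of the complex, fell less, with 7.18, 7.35 and 7.05 against 7.44 to 7.89 in the controls (-0.51 ± 0.10 (SE), adjusted p = 0.00168).

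The 7 kinesins, motors that build the spindle and move chromosomes, had a median change with miR2 of -1.11. KIF14, which acts in cytokinesis, had 5.69, 6.16 and 5.22 with miR2, 6.50 to 7.24 in the controls and 6.65 to 6.99 with miR1. It changed by -1.29 ± 0.18 (SE, adjusted p = 6.42e-05), the most negative value of the list. KIF2C, which depolymerises microtubules at centromeres, had 6.06, 6.20 and 5.59 with miR2, 6.73 to 7.58 in the controls and 6.84 to 7.33 with miR1. In both genes the miR2 tumours lay below all others. KIF2C changed by -1.25 ± 0.17 (SE, adjusted p = 5.05e-05) with miR2 and by -0.14 (95% interval -0.42 to 0.13) with miR1. KIF20A, needed for cytokinesis, had 6.13, 6.62 and 5.74 with miR2 against 6.75 to 7.61 in the controls (-1.11 ± 0.18 (SE), adjusted p = 0.000225), and its change with miR1 was 0.01. KIF11, the motor that separates spindle poles, had 6.99, 7.57 and 6.13 with miR2 and 7.39 to 8.58 in the controls, which overlapped, and changed by -1.17 (adjusted p = 0.0041). KIF23 had 7.26, 7.90 and 7.29 with miR2 against 8.01 to 8.53 in the controls, KIF4A 7.06, 7.68 and 6.96 against 7.74 to 8.25, and KIF18A 6.14, 6.83 and 5.70 against 6.66 to 7.34, of which KIF18A overlapped. These, KIF23 (-0.83), KIF18A (-0.80) and KIF4A (-0.80), were called with adjusted p of 0.000585, 0.00639 and 0.00115.

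Spindle-associated proteins fell in 6 of 6 cases with miR2. TPX2, which activates Aurora A on the spindle, had 7.98, 8.50 and 7.96 with miR2, 8.76 to 9.04 with miR1 and 8.81 to 9.03 in the controls apart from tumour 5, which had 8.39. It changed by -0.68 ± 0.14 (SE, adjusted p = 0.00179). NUSAP1, a microtubule bundling protein, had 5.87, 6.14 and 5.42 with miR2, 6.21 to 7.33 in the controls and 6.32 to 6.80 with miR1, and changed by -0.99 (adjusted p = 0.00126). DLGAP5, which stabilises spindle microtubules, had 6.72, 7.21 and 6.28 with miR2, 7.18 to 8.29 in the controls and 7.09 to 7.70 with miR1. HMMR had 5.51, 5.85 and 5.02 with miR2 against 5.96 to 6.64 in the controls, PRC1 7.84, 8.33 and 7.84 against 8.61 to 9.10 and ASPM 7.98, 8.29 and 7.74 against 8.45 to 8.87. Of these, DLGAP5 alone overlapped between miR2 and the controls. DLGAP5 changed by -1.06, HMMR by -0.90, PRC1, which bundles the central spindle, by -0.89, and ASPM, a spindle pole protein, by -0.69 (adjusted p from 0.000107 to 0.00216). The cytokinesis genes had higher mean signals with miR1 than in the controls but did not pass. ANLN (anillin), a scaffold of the contractile ring, had 8.97 to 9.27 in the controls, 9.08 to 9.50 with miR1 and 8.48, 8.87 and 8.16 with miR2. It changed by 0.20 ± 0.10 (SE, adjusted p = 0.303) with miR1 and by -0.64 ± 0.13 (SE, adjusted p = 0.00182) with miR2. ECT2, which activates RhoA at the cleavage site, had 8.31, 8.86 and 8.18 with miR2, 8.88 to 9.27 in the controls and 8.66 to 9.35 with miR1, and changed by 0.08 and -0.58 (adjusted p = 0.822 and 0.0111).

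MKI67, which encodes the proliferation marker Ki-67, had 8.14, 8.41, 8.02 and 8.21 in control tumours 1, 3, 4 and 6, and 7.71 and 7.23 in tumours 2 and 5. With miR1 it ran from 7.50 over a median of 7.59 to 7.88, and with miR2 it was 6.71, 7.18 and 6.39. All miR2 tumours were below all others, by a small margin to control tumour 5. The change was -1.19 ± 0.20 (SE, adjusted p = 0.000378) with miR2, which left 43.8% of the control signal, and -0.30 ± 0.16 (SE, 95% interval -0.63 to 0.03) with miR1. TOP2A, the topoisomerase that untangles sister chromosomes, had 8.90 to 9.50 in the controls, 8.80 to 9.14 with miR1 and 8.30, 8.60 and 8.07 with miR2. Its change was -0.87 ± 0.13 (SE, adjusted p = 0.000154) with miR2 and -0.22 ± 0.10 (SE, adjusted p = 0.274) with miR1. FOXM1, the transcription factor of many of these genes, moved with the array set. In set A it had 8.26 to 8.54 in the controls and 8.33 to 8.56 with miR1, and in set B 7.75 to 8.03 and 7.78 to 8.05. With miR2 it was 7.07, 7.78 and 7.51. Its change with miR2 was -0.73 ± 0.19 (SE, adjusted p = 0.00988) over all tumours and was not called within set B (adjusted p = 0.0816).

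**Figure D3:**
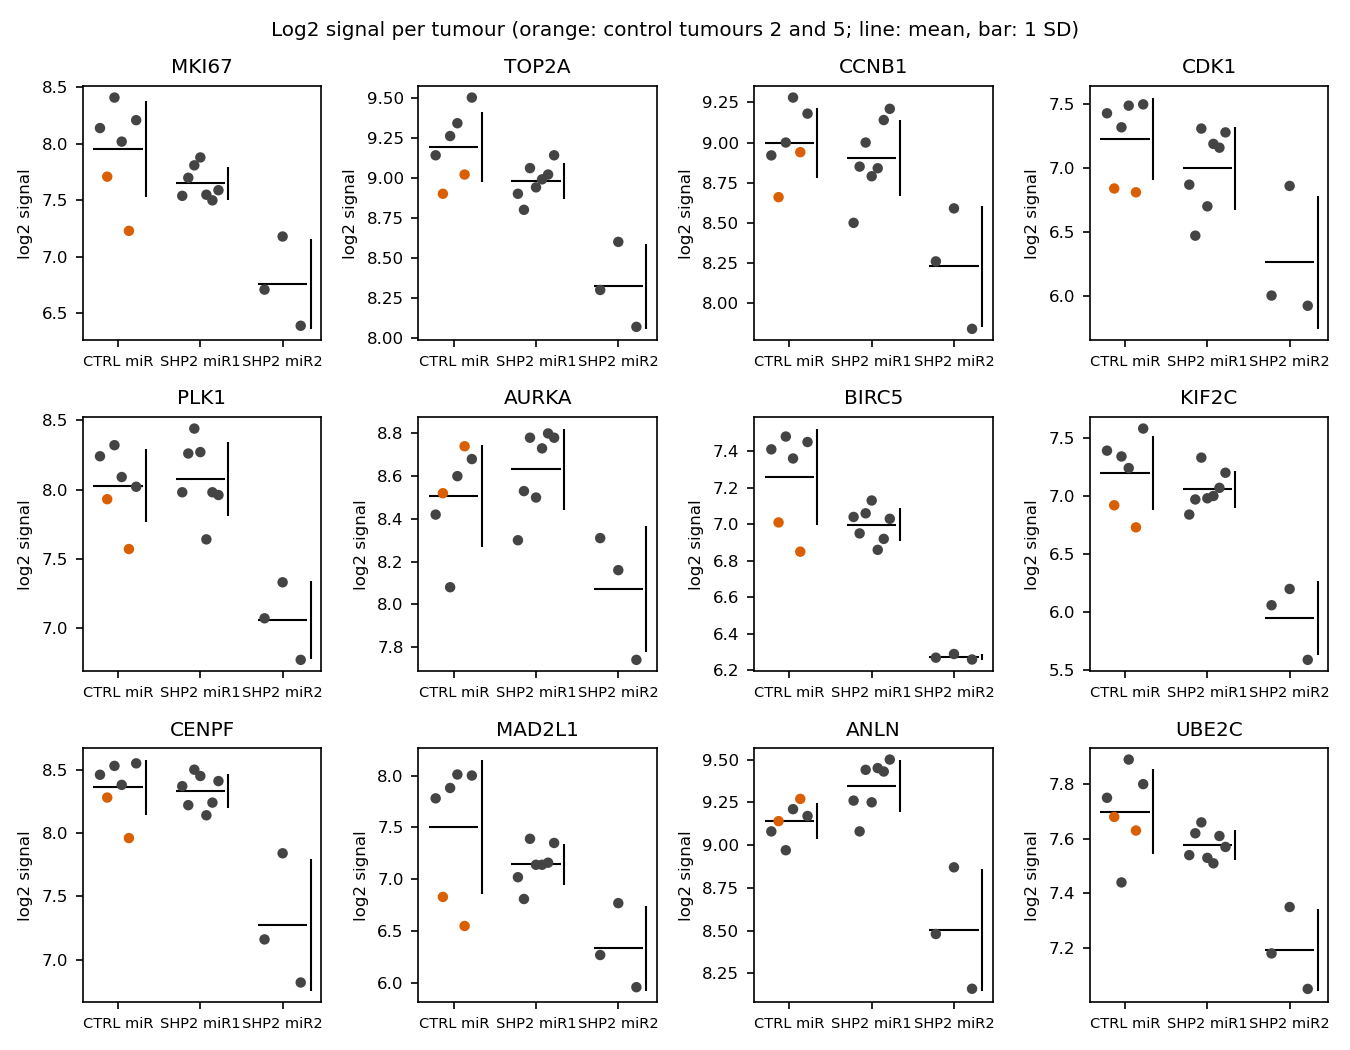
Log2 signal of 12 mitosis genes in each tumour, by group (CTRL miR, n = 6; SHP2 miR1, n = 7; SHP2 miR2, n = 3), with the group mean (line) and 1 SD (bar). Control tumours 2 and 5 are orange and are the lowest controls in genes such as MAD2L1 (6.83 and 6.55) and CDK1 (6.84 and 6.81), while BIRC5 has nearly one value in the 3 miR2 tumours (6.26 to 6.29). The vertical axes do not start at 0.

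Group overlap was counted over the list. All 3 miR2 tumours were below all 6 controls in 29 of 40 genes, where 11.2% of all genes had this pattern. The other 11 were AURKA, CDK1, CENPE, DLGAP5, FOXM1, KIF11, KIF18A, MAD2L1, NDC80, SPC25 and TPX2. All miR2 tumours were below all miR1 tumours in 29 of 40 genes as well, against 13.2% of all genes. No gene had all miR1 tumours below all controls, where 0.555% of all genes did.

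**Figure D4:**
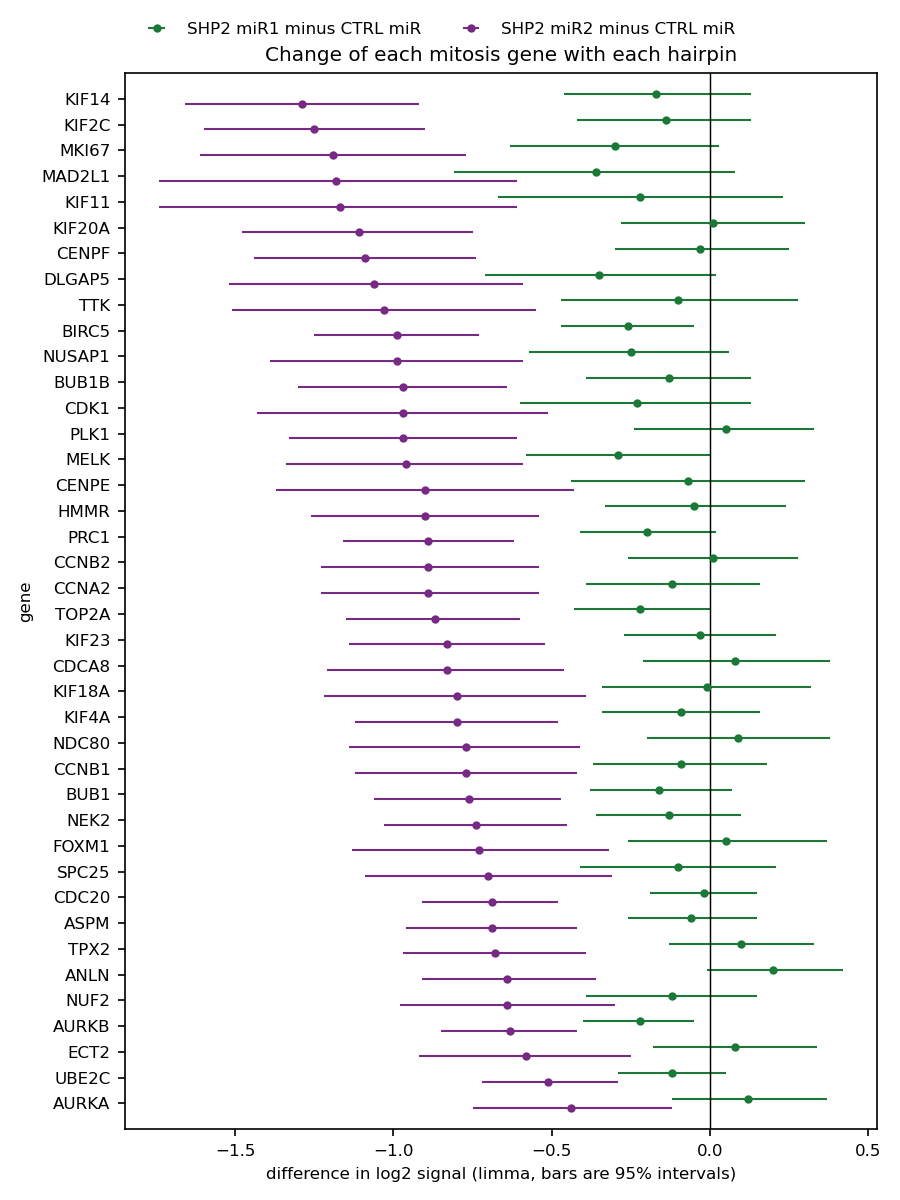
Difference in log2 signal from CTRL miR with its 95% interval for each of the 40 mitosis genes, for SHP2 miR1 (green) and SHP2 miR2 (purple), ordered by the miR2 change. Every miR2 interval lies below 0, from KIF14 (-1.29) to AURKA (-0.44), while the miR1 estimates (from MAD2L1 at -0.36 to ANLN at 0.20) have intervals that include 0 in all genes but AURKB and BIRC5.

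The split among the controls bears on both comparisons. Control tumours 2 and 5 were both below control tumours 1, 3, 4 and 6 in 31 of 40 genes, where 19.0% of all genes had this pattern. The exceptions were ANLN, AURKA, CCNB1, CDC20, ECT2, FOXM1, NEK2, NUF2 and UBE2C. The mean of tumours 2 and 5 minus that of the other controls ran from -1.23 (MAD2L1) to 0.18 (AURKA), with a median of -0.42, and was above 0 in AURKA and ANLN (0.09). Tumours 2 and 5 also differed from the others in IRS4, as given above, and HOXD10, a homeobox gene (4.17 and 3.43, against 7.31 to 7.83), and the split was read from such values. No test is therefore given for it.

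Against control tumours 2 and 5 alone, miR2 still had lower estimates in 40 of 40 genes, from -0.95 (KIF14) to -0.26 (SPC25), with a median of -0.55. With only 2 controls, 13 of 40 were called lower, where 2.98% of all genes were. These were ANLN, BIRC5, BUB1B, CDC20, CENPF, KIF14, KIF20A, KIF2C, MKI67, NEK2, PRC1, TOP2A and UBE2C. BIRC5 was at -0.66 (adjusted p = 0.00486), KIF2C at -0.88 (adjusted p = 0.00706) and MKI67 at -0.71 (adjusted p = 0.0496). With miR1, the estimates against tumours 2 and 5 ran from -0.08 (UBE2C) to 0.46 (MAD2L1), with a median of 0.20, and 0 of 40 were called, with 4 at an unadjusted p below 0.05. Of all genes 0.103% were called lower there and 6.02% had such a p. Against control tumours 1, 3, 4 and 6 alone, 39 of 40 were called lower with miR2, where 23.9% of all genes were, and 11 of 40 with miR1, where 11.9% of all genes were. Those 11 were AURKB, BIRC5, CCNA2, DLGAP5, KIF11, MAD2L1, MELK, MKI67, NUSAP1, PRC1 and TOP2A. Without control tumour 5 alone, 3 of 40 (AURKB, BIRC5 and MKI67) were called with miR1, where 7.17% of all genes were. The choice of controls thus turned the median for miR1 from -0.23 to 0.20 and kept it below 0 for miR2.

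Within array set B, which held miR2 tumours 1 to 3, miR1 tumours 5 to 7 and control tumours 4 to 6, 38 of 40 genes were called lower with miR2 than in the controls (9.98% of all genes), with a median of -0.88, and only FOXM1 and SPC25 were not called. Against the miR1 tumours of that set 28 of 40 were called (3.86% of all genes), with a median of -0.82. With miR1 against the controls, 0 of 40 genes were called by limma within set A and 0 of 40 within set B, where 0.0381% and 0.00544% of all genes were called lower, with medians of -0.10 and -0.06 and 0 of 40 at an unadjusted p below 0.05 in each. Of all genes 14.4% in set A and 9.26% in set B had such a p. The miR1 change was not called as different between the sets in any of the 40 genes (limma interaction, 0 of 40 at an unadjusted p below 0.05). Of all genes, 0 were called at an adjusted p below 0.05 in that interaction fit. The lack of calls is therefore not particular to the mitosis genes. The share of all genes with an unadjusted p below 0.05 is not given for that fit.

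The fall with miR2 rests on 3 tumours of unequal depth of change. The median gene stood at -0.92, -0.51 and -1.15 from the control mean in miR2 tumours 1, 2 and 3. Without tumour 3, 33 of 40 genes were called against the controls (8.76% of all genes) and 21 of 40 against miR1 (5.05% of all genes), with medians of -0.74 and -0.59. Without tumours 1 and 3, whose values were compressed, tumour 2 alone was left and was assumed to vary like the other groups. It then had lower estimates than the controls in 40 of 40 genes, with a median of -0.51. Of these, BIRC5, CDC20 and KIF2C were called, where 0.963% of all genes were called lower. Against miR1 limma called 0 of 40 (0.702% of all genes lower), with 13 at an unadjusted p below 0.05, as had 10.3% of all genes. With quantile normalization, which gives all arrays the same spread, 39 of 40 genes were called lower with miR2 than in the controls (15.2% of all genes) and 34 of 40 lower than with miR1 (9.64% of all genes).

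Some markers of mouse host cells, mostly of macrophages and fibroblasts, were higher with miR2. The mean of 8 macrophage genes was 3.99 to 4.45 in the controls, 4.24 to 4.45 with miR1 and 4.84, 4.43 and 4.86 in miR2 tumours 1, 2 and 3. That of 8 fibroblast genes was 4.89 to 5.37, 5.24 to 5.44 and 5.51 to 5.58, and that of 7 endothelial genes 4.08 to 4.38, 4.11 to 4.40 and 4.26 to 4.56. The 6 skeletal muscle genes had means of 4.92 to 5.25, 4.76 to 6.15 and 5.11 to 6.55. With miR2, 6 of 8 macrophage genes rose, among them LYZ (0.89, adjusted p = 0.000134) and the leukocyte gene PTPRC (0.66, adjusted p = 0.000384). So did 5 of 8 fibroblast genes, 2 of 7 endothelial and 0 of 6 muscle genes, and none of these 29 fell. Over all genes, 11.8% were called higher and 18.2% lower. Against control tumours 2 and 5 alone, 1 of 8 macrophage, 1 of 8 fibroblast, 0 of 7 endothelial and 0 of 6 muscle genes were called higher. Of all 18377 genes, 256 were called higher there. The miR2 tumours with the lowest mitosis values, 1 and 3, had the highest macrophage means. Their arrays were also the 2 with compressed signals, and miR2 tumour 2 (4.43) lay within the control range. Whether the compression bears on these markers was not tested. Several of these markers were dim in the controls. PTPRC (3.11 to 3.38), the endothelial gene EMCN (2.75 to 2.99), LUM (2.64 to 3.01) and MYH1 (3.00 to 3.29) were under each array's lower quartile (3.72 to 4.04). DCN and MRC1, which were called higher with miR2, and POSTN, CD163, AIF1 and MYH2 were at 3.08 to 3.84, near or under those quartiles. The array is human, so a mouse transcript is read only where it hybridises. The human luminal list had a mean of 9.36, 9.54 and 9.42 with miR2 against 8.82 to 9.38 in the controls. Of its 9 genes GATA3, ESR1 and EPCAM rose with miR2 and none fell against the controls, while the keratins KRT8, KRT18 and KRT19 were called lower with miR2 than with miR1. Against control tumours 2 and 5 alone, GATA3 (0.90) and ESR1 (0.98) were called higher with miR2 and KRT19 lower (-0.58, adjusted p = 0.0429). With the mean of the macrophage, fibroblast and endothelial genes as a covariate, the median change of the mitosis genes with miR2 was -0.42. CDC20 alone was then called against the controls (0.691% of all genes), and 7 of 40 genes (ANLN, AURKA, CDC20, CENPF, KIF14, KIF20A and KIF2C) against miR1 (2.26% of all genes). With miR1 against the controls, limma called 0 of 40 in that fit, with 4 at an unadjusted p below 0.05 (of all genes 0.354% were called lower and 23.0% had such a p). That host score was 4.35 to 4.75 in the controls, 4.57 to 4.77 with miR1 and 4.76 to 5.01 with miR2. Between miR2 and the controls it did not overlap, but only just (4.76 in miR2 tumour 2, 4.75 in control tumour 5), and miR1 tumour 7 (4.77) overlapped miR2. The score was also higher in control tumours 2 and 5 (4.59 and 4.75) than in the other controls (4.35 to 4.52). With it as a covariate, the change of IRS4 with miR2 went from -3.17 to 0.12. Against the controls, the fit thus cannot separate host cells from the hairpin or from the split of the controls. Over all genes, calls with miR2 against the controls went from 3345 lower and 2163 higher to 127 and 174. The part of host cells in the fall was not tested.

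**Figure D5:**
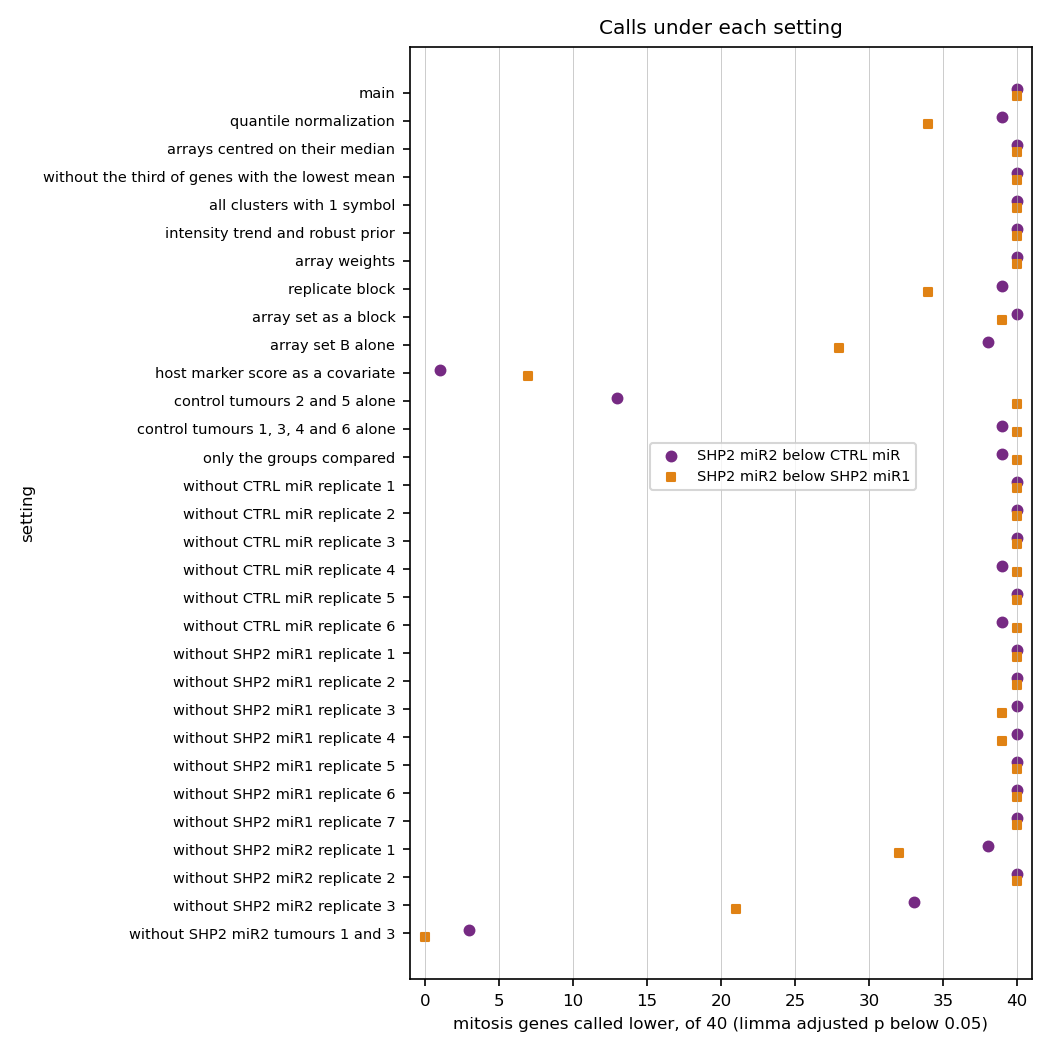
Number of the 40 mitosis genes called lower with SHP2 miR2 than with CTRL miR (purple circles) and than with SHP2 miR1 (orange squares) under each setting of the analysis. Most settings call 38 to 40 genes against the controls. The exceptions are the host marker score as a covariate (1), control tumours 2 and 5 alone (13), the fit without miR2 tumours 1 and 3 (3) and the one without miR2 tumour 3 (33).

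Other genes of mitosis, from lists that share no gene with the 40, moved likewise with miR2. The counts below stand beside 18.2% of all genes called lower with miR2 and 11.8% called higher. Of 30 measured kinetochore and centromere genes, 27 fell and 0 rose (median -0.72), with the checkpoint gene BUB3 at -0.91 (adjusted p = 0.000554), SKA3 at -1.08 and ZWILCH at -0.89 among them. Of 25 other spindle, centrosome and cytokinesis genes 24 fell and 0 rose (median -0.78), with the midbody protein gene CEP55 at -1.05 and SPAG5 at -0.78. Of 18 cohesin and condensin genes 13 fell and 0 rose (median -0.55), with the condensin subunit gene NCAPD2 at -0.85 (adjusted p = 8.99e-05) and CDCA5 at -0.72. Of 17 genes of the anaphase-promoting complex and separase 9 fell and 0 rose (median -0.47). Securin (PTTG1), the inhibitor of separase, had the largest fall there (-1.06, adjusted p = 7.07e-06). Of 10 genes of mitotic entry 8 fell and 0 rose (median -0.58), among them CDC25C (-0.85), a phosphatase that activates CDK1.

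Among the 18 DREAM, MuvB and E2F genes, 9 fell and 1 rose with miR2 (median -0.39), where 18.2% of all genes were called lower and 11.8% higher. MYBL2 (B-MYB) changed by -0.88 (adjusted p = 0.00365), LIN9 of the MuvB core by -0.90 (adjusted p = 0.00286) and E2F3 by -0.65 (adjusted p = 0.000679). RBL1 (p107), a pocket protein of the DREAM complex, changed by -1.20 with miR2 (adjusted p = 0.00253), and 1 gene of the list, RBL1, was called with miR1 (-0.75). RBL2 (p130), another pocket protein, was the 1 that rose with miR2 (0.28), and is named here for that value alone. For comparison, of 12 DNA replication genes 11 fell and 0 rose with miR2 (median -0.84), with MCM6 at -1.12 and GMNN at -1.20. RBL1 was the only gene of these 7 lists that limma called with miR1, where 4.76% of all genes were called. List medians with miR1 lay between -0.18 and 0.02. An unadjusted p below 0.05 was reached by 23 of their 130 genes (17.7%), close to the 18.4% of all genes. Against control tumours 2 and 5 alone, the medians of these 7 lists with miR2 lay between -0.51 and -0.19. There 9 of their 130 genes were called lower, where 2.98% of all genes were.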

How the data were processed

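The authors deposited 1 table of log2 signals for 28869 transcript clusters of the human gene array HuGene-1_0-st-v1 in 16 tumours, made with R 2.10 and oligo 1.8, as the submitters' processing notes list. How the background was corrected and arrays normalized is not given in the sources used. Array medians were 5.21 to 5.41. Symbols came from GEO's platform annotation: 19310 clusters had 1 symbol, 1752 several and 7807 none. limma 3.58.1 (R 4.3.3) was fitted to 18377 genes over the 3 groups, which share 1 estimate of the spread, and p-values were adjusted after Benjamini-Hochberg over all genes. A p-value sets a group difference against the spread between tumours within groups, moderated over all genes. In the main fit that spread includes the split of the controls and the array sets. The number of arrays limits the precision. The script was tested on simulated data.

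Members and lists were chosen with earlier results of these data known. Values by tumour are given for a fixed panel, for the extremes of each comparison with CTRL miR and for members called between both SHP2 hairpins. At most 4 genes of each other list are named, those with the smallest adjusted p with miR2. Alternatives covered normalization, centring, filtering, the variance prior, array weights, the array set, host markers, the controls used and each tumour left out. Replicate numbers were not taken to pair the tumours, since not every pair correlated above 0.1. Deviations of same-numbered miR1 and control tumours correlated at 0.21 to 0.37 in the 5 pairs within 1 array set and at -0.30 in the 1 pair across sets, and those of miR2 and control tumours at -0.21 to 0.02.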

Additional observations from a re-analysis of the deposited data

Results flagged for a closer look

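Among 82 groups of 4 or more tumours examined (each mitosis gene in the controls and with miR1, and PTPN11 likewise), 1 held a tumour that stood apart by Dixon's test at the 95% level. TPX2 was at 8.39 in control tumour 5, against 8.81 to 9.03 in the other controls, a gap of 0.66 of the whole range. Chance sets a tumour apart in about 1 in 20 groups.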

How the results depend on the processing

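For miR2 against the controls, all 40 genes were lower under the main setting, and the count stayed within 1.5 times of that except with the host marker score as a covariate (1), with control tumours 2 and 5 alone (13) and, in a fit added after the data were seen, without miR2 tumours 1 and 3 (3). Leaving out 1 tumour at a time gave 33 to 40, the lowest without miR2 tumour 3. For miR2 against miR1, the host marker score gave 7, the fit without miR2 tumours 1 and 3 gave 0, and leaving out 1 tumour at a time gave 21 to 40, the lowest without miR2 tumour 3. For miR1 against the controls, where 0 were called, array weights gave 9 (11.2% of all genes), control tumours 1, 3, 4 and 6 alone gave 11, and leaving out 1 tumour at a time gave 0 to 3, the highest without control tumour 5. The array weights of control tumours 2 and 5 were 0.43 and 0.34, against 0.94 to 2.01 in the other controls. Array weights and the fit with control tumours 1, 3, 4 and 6 alone thus both lean on those controls. The cause of the differences between settings was not tested. FOXM1 changed sign for miR2 against the controls with the host marker score (0.13, adjusted p = 0.867), and leaving out 1 tumour gave -0.89 to -0.54 for it. With the replicate number as a block, 39, 34 and 0 genes were called lower for miR2 against the controls, miR2 against miR1 and miR1 against the controls, where 20.7%, 19.3% and 2.74% of all genes were. Array weights raised the genes called lower with miR1 over the whole array from 621 to 2067.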
